A study of Mus musculus with 13 samples.

Results

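The cells described here are the Shh-expressing hair matrix cells of newborn mouse back skin, read by droplet single-cell RNA-seq at postnatal day 0 (P0). The hair matrix is the proliferating epithelium at the base of the growing hair follicle. On one side of each developing follicle it makes Sonic hedgehog, the secreted protein encoded by Shh. Hedgehog is received by Patched receptors, which hold back the membrane protein Smoothened until the ligand binds, and the signal then reaches the nucleus through the Gli transcription factors. Wnt, ectodysplasin and BMP signals act in the same follicles, and Lhx2 is a transcription factor of the early follicle epithelium.

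A cell was taken as a Shh cell when it held at least 2 Shh UMIs (unique molecular identifiers, each standing for 1 captured mRNA) and at least 1 Lhx2 UMI. It also had fewer than 5 UMIs per 10000 of the inner root sheath keratins Krt25, Krt27 and Krt28, and fewer than 5 per 10000 of the pigment cell genes Dct and Pmel. Cells with fewer than 900 or more than 7700 detected genes, or over 10% of UMIs from mitochondrial genes, were left out. These limits gave 3619 Shh cells, 10.4% of 34852 kept cells at P0, out of 97363 barcodes in 13 libraries. The cells were thus selected on the measured UMIs of 7 genes, which were described and not tested. Shh lies at chr5:28456815-28467256 on the minus strand and Lhx2 at chr2:38339281-38369733 on the plus strand (mm10).

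The mice were C57BL/6, and each library was labelled with 1 age and 1 genotype. At P0 there were 2 WT and 2 Grhl3-/- (KO) libraries from littermates, and 1 further WT library, here called the first WT library, whose title names version 1 of the Chromium chemistry. The P0 libraries are of epidermis lifted off the dermis, taken away from the spinal defect of the mutants, and the embryonic libraries used here (E16.5, 2 WT and 2 KO) are of whole skin. At E14.5 only 4 cells met the rule. Grhl3 encodes a transcription factor of the surface epidermis, and the deletion is present in every cell of the KO mice.

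The Shh cells numbered 576 in WT1, 887 in WT2, 866 in KO1, 1019 in KO2 and 271 in the first WT library. Their share of kept cells was 8.51% in WT1 (95% exact binomial interval 7.86 to 9.20), 13.5% in WT2 (12.6 to 14.3), 9.46% in KO1 (8.87 to 10.1), 13.99% in KO2 (13.2 to 14.8) and 5.36% in the first WT library (4.75 to 6.01). The intervals cover counting error only. The genotypes overlapped, and libraries of 1 genotype differed by more than these intervals. KO exceeded WT by 0.74 percentage points on average, with p = 0.667 in the two-sided exact permutation test, in which 2 libraries against 2 cannot go below 0.33. The sign changed when every cell was thinned to 3000 UMIs (-0.62 percentage points), without WT1 (-1.74) and without KO2 (-1.53).

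**Figure D1:**
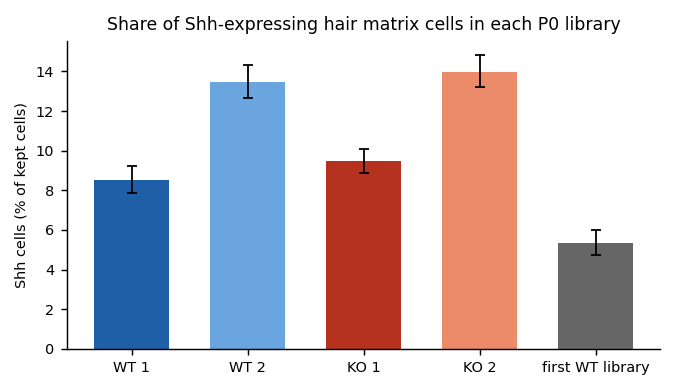
Shh cells as a percentage of the kept cells in each P0 library (bars, vertical axis from 0), with 95% exact binomial intervals. The WT and KO libraries overlap, from 8.51% to 13.99%, and the first WT library is lowest at 5.36%.

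The background was read from cells that should lack Shh. Among 1005 Langerhans-gated cells (at least 50 UMIs per 10000 of Cd74, H2-Aa and H2-Ab1, immune cells), 12 cells or 1.19% held at least 2 Shh UMIs, and 7 of them met the whole rule. The part of free RNA and of doublets in these was not tested. The range over libraries was 0 to 2.40% in these cells and 6.64% to 19.4% in all kept cells. Median UMIs were 5567 to 7328 in Langerhans-gated cells, 9973 to 13884 in Shh cells and 7605 to 11297 in the comparison cells described below. A single Lhx2 UMI was less selective, being present in 9.73% to 12.7% of the Langerhans-gated cells. A doublet score marked 250 Shh cells, where the number of marked cells per library was set by an assumed rate. The marked share of Shh cells was 10.97% in KO1, at an assumed rate of 7.47%. In the other libraries it was 3.32% to 6.20%, at assumed rates of 4.05% to 5.90%. Pairs of libraries shared at most 3 Shh cell barcodes.

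The edge of the rule was gradual. Exactly 2 Shh UMIs were held by 1143 Shh cells, 31.6% of all, while 2131 cells met every other limit with 1 Shh UMI. The keratin limit removed 597 cells and the pigment limit 403 of the 4597 that passed for Shh and Lhx2. Keratin values of 4 to 5 UMIs per 10000 were held by 127 Shh cells, and 116 cells were left out at 5 to 6. The highest cell held 33 Shh UMIs.

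The marker genes of the label were present in each library. Levels are given as CPM, a gene's UMIs per 1000000 UMIs summed over the cells of a library. Pdgfa, a growth factor ligand, was at 856, 889, 794, 671 and 822 CPM in Shh cells of WT1, WT2, KO1, KO2 and the first WT library, against 372 to 435 CPM in cells with Lhx2 and no Shh. Col27a1, a fibrillar collagen gene, was at 303, 322, 188, 131 and 161 CPM against 88.5 to 170. Ovol2, a zinc finger factor that keeps cells epithelial, was at 122, 155, 147, 86.3 and 135 CPM against 25.5 to 59.2. Each of the 3 was higher in Shh cells in 5 of 5 libraries, and they are given as a description because they were chosen with these data known.

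Markers of cell types outside the epithelium summed to at most 154 CPM a list in Shh cells, and those of several other epithelial layers were higher. The melanocyte list holds Dct and Pmel, and the inner root sheath list Krt25, Krt27 and Krt28. The rule limits these genes, so the sums of these lists were partly set by the selection. The 9 fibroblast or papilla markers summed to 14.4 to 21.3 CPM, with 8 of 9 under 5 CPM in every library, and 3 of 3 endothelial and 4 of 4 muscle markers stayed under 5 CPM. The 9 Langerhans or macrophage markers summed to 47.1 to 154 CPM, against 29279 to 51818 CPM in Langerhans-gated cells. Differentiated interfollicular epidermis (IFE) was more visible, since 7 suprabasal markers led by Krt10 summed to 472 to 2978 CPM in Shh cells and to 276 to 3059 CPM in Langerhans-gated cells. Of other epithelial lists, the IFE basal markers summed to 2776 to 6077 CPM, companion layer to 1497 to 4357, outer root sheath to 836 to 2447, sebaceous to 536 to 691, upper follicle to 273 to 749 and inner root sheath to 231 to 338 CPM. Their leading genes were Krt14, Krt17, Krt15, Fabp5, Krt79 and Gata3, in that order. The 9 measured hair shaft genes summed to 80.8 to 146 CPM, led by Krt35, an early hair cortex and cuticle keratin.

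To see what accompanies Shh, the UMIs of Shh cells in each P0 library were compared with those of 10077 cells of the same libraries that held Lhx2, no Shh UMI, the same limits on keratin and pigment, and more Krt5 and Krt14 than fibroblast collagen UMIs. Of 13357 genes tested, 2168 were higher in Shh cells (16.2%) and 2737 lower (20.5%), or 36.7% in all, by edgeR's quasi-likelihood test with the library as a block and an adjusted p under 0.05. With no block for the library, 199 were higher and 207 lower. The 6 largest rises by the naming rule were Sp5, Limch1, Bmp2, Cygb, Nkd1 and Sox21. The 6 largest falls were Stfa1, Flg, Ccer2, Tbx1, Krt16 and Cd74, of which Stfa1 was measured almost wholly in the first WT library. Flg stands here for 1 entry of a symbol that occurs more than once in the counts. It is not among the 7 suprabasal markers. Against comparison cells with at least 3 Lhx2 UMIs, Tbx1 and Ccer2 were still called lower, Stfa1 and Cd74 were not called (-0.33 and -0.51), and Flg and Krt16 changed sign (0.38 and 0.14). Outer root sheath genes were lower throughout their list. At E16.5, with libraries that the cell rule was not built on, 188 Shh cells and 612 comparison cells gave 357 higher (4.66%) and 389 lower genes (5.07%) of 7668 tested, 9.73% in all.

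Genes of the hedgehog list moved in both directions, with 3 of 12 rising and 4 falling, where 16.2% of all genes were higher and 20.5% lower. Ptch1, the main receptor, was at 355, 330, 239, 216 and 174 CPM in Shh cells against 254, 244, 251, 220 and 152 CPM in the comparison cells. It was higher in 3 of 5 libraries, all of them WT, and lower in each KO library, with an adjusted p of 0.0615 (edgeR). At E16.5 Ptch1 was not called, at -0.55 to -0.28 on the log2 scale with 1 library left out. Against E16.5 cells with at least 3 Lhx2 UMIs it was called lower (edgeR). Gli1, a transcription factor induced by the pathway, was higher by 0.26 (SE 0.06, adjusted p = 0.00432, edgeR), and Smo by 0.22 (SE 0.05, adjusted p = 0.00434, edgeR).

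Co-receptor genes were among those that fell. Gas1, which helps Patched to bind the ligand, was at 49.3, 53.7, 46.7, 39.4 and 47.7 CPM in Shh cells and 86.8, 98.1, 105, 97.9 and 155 CPM in the comparison cells. It fell by 1.15 on the log2 scale (SE 0.10, adjusted p = 3.41e-06, edgeR). Boc, another co-receptor, Gli2 and the decoy receptor gene Hhip also fell, by 0.63, 0.41 and 1.60 on the log2 scale. At E16.5 Gas1 fell by 2.60 on the log2 scale (adjusted p = 1.27e-08, edgeR), 1 of 2 genes past the threshold among 8 tested. Gli1 and Smo were not called when the comparison cells had to hold at least 3 Lhx2 UMIs, while Hhip, Boc, Gas1 and Gli2 were.

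Every tested Wnt effector and target passed the test. Of 21 genes, 15 rose and 6 fell at P0, where 16.2% of all genes were higher and 20.5% lower. The median log2 fold change was 0.71, against -0.01 over all genes. Sp5, a zinc finger gene that Wnt signalling switches on, was at 50.7, 101, 48.0, 48.8 and 259 CPM in Shh cells and 6.82, 10.1, 4.89, 4.95 and 41.4 CPM in the comparison cells. The first WT library was the highest in both sets, and the log2 fold change was 3.05 (SE 0.10, adjusted p = 3.60e-09, edgeR). Notum, a secreted enzyme that inactivates Wnt ligands, was at 19.1, 33.1, 35.8, 47.5 and 92.6 CPM against 1.35, 2.23, 2.87, 4.61 and 7.20 CPM (log2 fold change 3.62, SE 0.08, adjusted p = 3.03e-10, edgeR).

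Feedback inhibitors and nuclear partners of the pathway moved in both directions. Nkd1, an intracellular inhibitor, was at 48.8, 72.7, 63.5, 71.0 and 106 CPM against 9.03 to 21.2 CPM. Lef1, the transcription factor that binds beta-catenin, was at 86.7, 92.0, 94.2, 105 and 92.0 CPM against 31.9, 33.8, 49.9, 47.3 and 41.8 CPM. Their log2 fold changes were 2.31 (SE 0.07) and 1.20 (SE 0.07). Ctnnb1, Tcf7 and Axin2 rose by smaller amounts, 0.71, 0.79 and 0.89. Lgr5, a Wnt pathway gene of follicle stem cells, and Sostdc1, a secreted Wnt and BMP inhibitor, fell by 1.22 and 1.29 on the log2 scale. Tcf7l1 and Tcf7l2, which also bind beta-catenin, fell by 0.78 and 0.38, and the Dickkopf family genes Dkk3 and Dkkl1 by 0.60 and 1.21, of which Dkkl1 was not called against cells with at least 3 Lhx2 UMIs. Dkk4, of the same family, rose by 3.94 (SE 0.28), from 0.089 to 1.26 CPM in the comparison cells to 0.81 to 12.2 CPM in Shh cells. The same list at E16.5 gave 10 higher and 3 lower of 18 tested, where 4.66% of all genes were higher and 5.07% lower. There Lef1 was at 1.85, Nkd1 at 2.40, Notum at 4.48, Axin2 at 1.36 and Dkk4 at 5.39. Lgr5, Sostdc1 and Tcf7l2 were at -2.62, -3.29 and -0.95.

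Of 12 tested genes in the list of Wnt ligands, 5 rose and 2 fell at P0, where 16.2% of all genes were higher and 20.5% lower. Those that fell were Wnt7b and Porcn, which encodes an enzyme that modifies the ligands. Wnt7a and Wnt10a rose by 2.10 and 0.91, Wnt10b by 2.24 (SE 0.10), Wnt3 by 1.45 (SE 0.08) and Wnt6 by 0.50 (SE 0.08), while Wnt7b fell by 0.79 on the log2 scale (SE 0.08; adjusted p = 1.77e-08, 1.92e-07, 0.000577 and 1.21e-05 for the last 4, edgeR). Wnt10b was at 13.8 to 21.5 CPM in Shh cells and 3.34 to 5.35 CPM in the comparison cells. Wnt10b, Wnt3, Wnt6 and Wnt7b were called in the same directions at E16.5, with Wnt7b lower by 2.07.

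**Figure D2:**
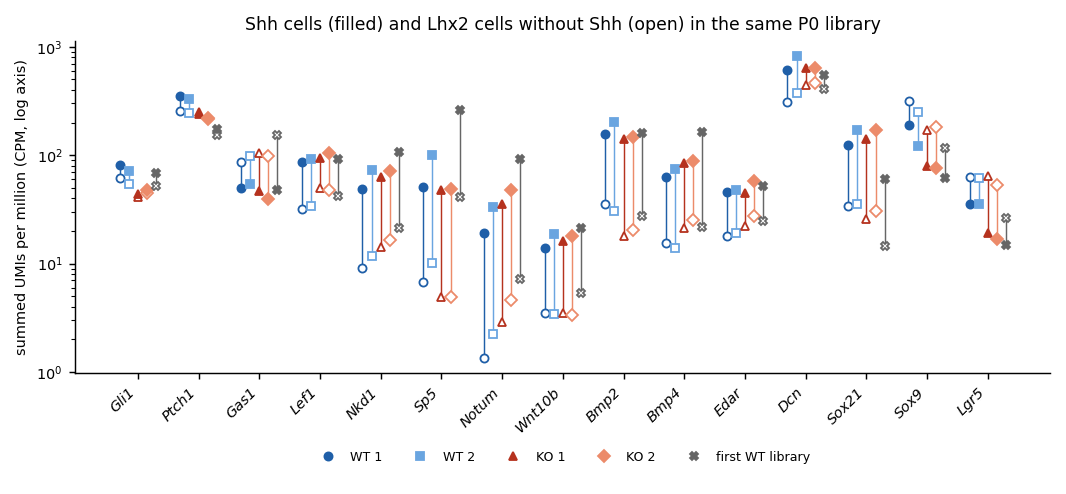
CPM of summed UMIs (log axis) of 15 genes in Shh cells (filled) and in Lhx2 cells without Shh (open) of the same P0 library, joined by a line for each of 5 libraries. Sp5, Notum and Bmp2 are higher in Shh cells in every library and Gas1, Sox9 and Lgr5 lower. Ptch1 is higher in Shh cells in each WT library and lower in each KO library.

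The promoter of Sp5, the gene with the largest rise by the naming rule, is printed because it was the only one of 10 Wnt effectors and targets called higher with a RefSeq promoter entry to hold the TCF/LEF motif CTTTGAT on either strand. It spans 250 bases before to 50 after the start of transcription at chr2:70474673-70474972 on the plus strand (RefSeq, GRCm38.p6), with the motif in capitals.
Sp5: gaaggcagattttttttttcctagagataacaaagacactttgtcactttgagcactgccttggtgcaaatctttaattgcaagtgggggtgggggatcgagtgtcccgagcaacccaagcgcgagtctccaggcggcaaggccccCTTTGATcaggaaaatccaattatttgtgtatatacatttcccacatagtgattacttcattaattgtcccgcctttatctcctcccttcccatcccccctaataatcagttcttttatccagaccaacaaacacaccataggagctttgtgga
The motif was held by 298 of 9921 genes tested with such an entry (3.00%), by 57 of 1607 higher in Shh cells (3.55%) and by 62 of 2045 lower (3.03%). A match of these letters is a description and not a bound site.

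Ectodysplasin and BMP genes also differed. Edar, the ectodysplasin receptor of hair placodes, was at 45.8, 47.4, 44.5, 58.4 and 52.6 CPM against 18.0, 19.1, 22.3, 27.3 and 24.8 CPM, a log2 fold change of 1.16 (SE 0.06, adjusted p = 1.19e-07, edgeR). Of 8 tested genes in its list 6 rose and none fell by the same test, where 16.2% of all genes were higher and 20.5% lower. Tnfrsf19, a related receptor, rose by 1.05, and Fgf20, a ligand of placodes, rose by 3.55 from 0.20 to 1.71 CPM in the comparison cells to 2.51 to 12.5 CPM. Edar, Tnfrsf19 and Fgf20 rose by 1.48, 1.80 and 3.51 at E16.5.

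Bmp2 was at 156, 200, 141, 148 and 159 CPM in Shh cells and 35.3, 30.7, 17.9, 20.4 and 27.6 CPM in the comparison cells. Its log2 fold change was 2.64 (SE 0.10, adjusted p = 5.97e-09, edgeR), and Bmp4 and Bmp7 rose by 2.18 and 0.92. Id3, a target of BMP signalling, fell by 0.57 on the log2 scale (SE 0.05) at P0 and rose by 0.34 (SE 0.09) at E16.5, with adjusted p = 3.89e-06 and 0.0162 (edgeR). The list held 7 higher and 5 lower genes of 17 at P0, where 16.2% of all genes were higher and 20.5% lower.

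Among 28 tested transcription factors of the follicle, 12 rose and 6 fell, where 16.2% of all genes were higher and 20.5% lower. Sox21, a hair shaft regulator, was at 125, 172, 140, 173 and 60.2 CPM against 34.2, 35.4, 26.1, 30.7 and 14.4 CPM (log2 fold change 2.25, SE 0.08). Hoxc13, an activator of hair keratins, rose by 0.92 and Msx2 by 0.64. Sox9, the factor of outer root sheath and bulge cells, was at 188, 123, 79.0, 75.7 and 61.8 CPM against 313, 251, 172, 180 and 116 CPM, lower in every library by 1.02 on the log2 scale (SE 0.06, adjusted p = 3.17e-07, edgeR). All 6 outer root sheath markers fell at P0 and 5 of 6 at E16.5, where Sox9 fell by 3.19 on the log2 scale.

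Dcn, the gene of the matrix proteoglycan decorin that is best known from fibroblasts, was high in these epithelial cells. It was at 608, 825, 632, 643 and 546 CPM in Shh cells, 308, 371, 440, 461 and 410 CPM in the comparison cells and 48.5 to 101 CPM in Langerhans-gated cells. Its log2 fold change was 0.70 at P0 (SE 0.09, adjusted p = 0.000137, edgeR) and 1.92 at E16.5 (SE 0.12, adjusted p = 3.7e-09, edgeR). After thinning to 3000 UMIs, 53.1% to 58.2% of Shh cells held a Dcn UMI (74.5% to 80.2% without thinning), against 6.49% to 9.55% of Langerhans-gated cells (14.4% to 17.2%). The summed fibroblast or papilla markers were at 14.4 to 21.3 CPM in Shh cells at P0 and 343 to 597 CPM at E16.5, and their part in the E16.5 result was not tested.

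Some lists turned with the choice of comparison cells. The 7 suprabasal IFE markers were all lower in Shh cells, but against cells with at least 3 Lhx2 UMIs 1 was higher and none lower (edgeR), and Flg, of terminal differentiation, moved from -1.85 to 0.38 on the log2 scale. The summed level of these markers in the comparison cells was 1141 to 8693 CPM. The G2M phase list changed from 26 higher and 1 lower of 52 genes to 2 higher and 11 lower. The S phase list went from 3 higher and 7 lower of 36 to 2 higher and 25 lower. Of all genes, 16.2% were higher and 20.5% lower in the first comparison. Mki67 and Top2a, of dividing cells, were higher by 0.19 and 0.25 in the first comparison and -0.24 and -0.26 at E16.5 (adjusted p = 0.417 and 0.254, edgeR). By contrast, the Wnt effectors kept 15 higher genes, the ectodysplasin list 6 and the outer root sheath list 6 lower ones.

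The ages share no library. Of 7646 genes tested at both, 269 were higher in Shh cells at both ages, 18.2% of the 1482 higher at P0 and 76.0% of the 354 higher at E16.5. For lower genes it was 311, which is 18.9% of 1642 and 80.4% of 387. Across genes, which are not independent replicates, log2 fold changes had a Pearson r of 0.64 and a Spearman rho of 0.45. Cd74 and Runx1 were among those called in opposite directions. At P0 all 8 tested Langerhans or macrophage markers and all 4 T cell markers were lower in Shh cells, and the former list summed to 229 to 557 CPM in the comparison cells. Against cells with at least 3 Lhx2 UMIs, 3 of the 8 and none of the 4 were called, and Cd74 was at -0.51 (adjusted p = 0.128, edgeR).

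**Figure D3:**
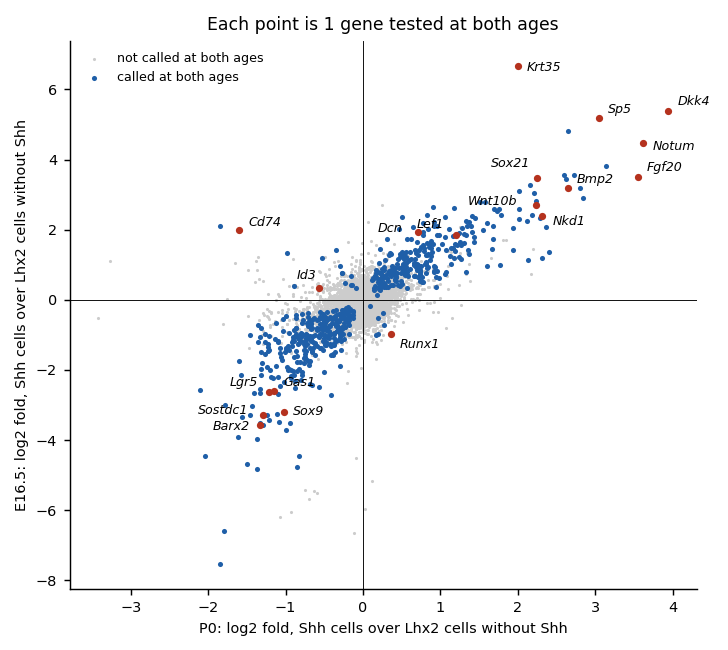
Log2 fold change of Shh cells over Lhx2 cells without Shh at P0 (horizontal) and E16.5 (vertical) for 7646 genes, with genes past an adjusted p of 0.05 at both ages in blue and named genes in red. Sp5, Notum, Bmp2 and Nkd1 lie at the upper right and Sox9, Lgr5 and Gas1 at the lower left. Krt35 was at 0 CPM in all E16.5 comparison cells, so its vertical value is not a measured fold.

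Levels also rose with the number of Shh UMIs in a cell. This is described without a test, because cells with more Shh UMIs also tend to hold more UMIs in all. Bmp2 averaged 26.4 ± 7.17 CPM (SD over 5 libraries) in cells with no Shh UMI, 68.9 ± 12.2 with 1, 117 ± 25.3 with 2, 153 ± 18.2 with 3 to 4 and 204 ± 29.8 with 5 or more. Lef1 rose from 41.0 ± 7.99 to 102 ± 9.97 CPM over the same steps. Sox9 went from 206 ± 76.6 to 94.6 ± 44.7 CPM and Krt14, a basal keratin, from 3397 ± 2386 to 1570 ± 638 CPM. Gli1 went from 50.7 ± 7.95 to 68.0 ± 19.9 CPM and was higher with 5 or more Shh UMIs than with none in 5 of 5 libraries. The steps between were not steady. With 2 Shh UMIs Gli1 was at 35.3 CPM in KO1 and 41.8 in KO2, against 41.3 and 44.6 with none. It was higher than with none in each WT library.

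**Figure D4:**
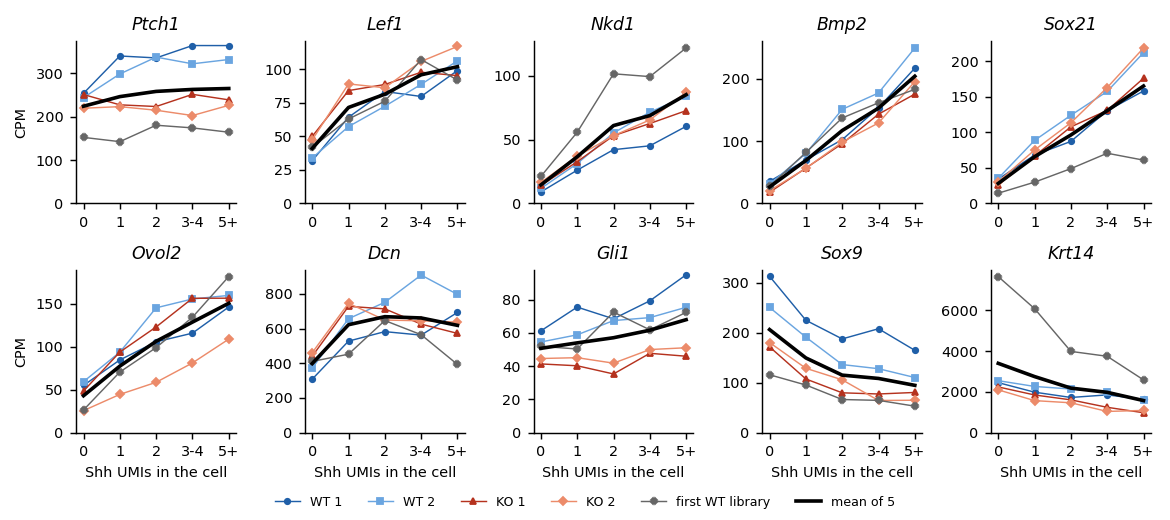
CPM of 10 genes (vertical axes from 0) by the number of Shh UMIs in the cell, with 1 thin line for each P0 library and the mean of 5 in black. Nkd1, Bmp2, Sox21 and Ovol2 increase from the 10077 cells without Shh to the 1153 cells with 5 or more UMIs, Dcn levels off after 1 UMI, and Sox9 and Krt14 decline.

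Loss of Grhl3 was compared in Shh cells of 2 KO and 2 WT libraries. In all kept cells Grhl3 was at 7.0 and 8.29 CPM in WT, 6.34 in the first WT library, and 2.42 and 2.81 in KO. In Shh cells it was at 5.51 and 6.28 CPM in WT, 7.69 in the first WT library, and 3.69 and 4.13 in KO, and did not pass the test (log2 fold change -0.46, SE 0.25, adjusted p = 0.203, edgeR). Of 12386 genes tested, 1589 were higher (12.8%) and 1404 lower in KO (11.3%, edgeR), together 24.2%. The first WT library did not side with WT, as its level was nearer to KO for 74.9% of called genes and 59.8% of the others. When it was added to WT, edgeR called 0 genes (1018 at an unadjusted p under 0.05) and DESeq2 called 53 higher and 136 lower. Without KO2, 414 were higher and 413 lower, without KO1, 974 and 831, and without WT1, 1177 and 884. Every value below is therefore a difference between these 4 libraries.

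Most called differences were not particular to Shh cells. The same edgeR test was run in the Lhx2 cells without Shh, which came from the same libraries. Of 2979 called genes tested there, 2631 were called in the same direction and 0 in the opposite one. Of 9336 genes not called in Shh cells, 1684 were called there in the same direction and 58 in the opposite one. In Langerhans-gated cells 81.1% of called genes went the same way, against 60.9% of the others. Odc1, the first enzyme of polyamine synthesis, was at 39.3 and 64.5 CPM in WT and 360 and 629 CPM in KO. The first WT library was at 325 CPM, next to KO1, and the log2 fold change was 3.38 (SE 0.29, adjusted p = 0.000382, edgeR). Ldha, lactate dehydrogenase, was at 123 and 140 CPM in WT, 497 and 533 in KO and 465 in the first WT library, and at 355 and 389 against 647 and 611 CPM in Langerhans-gated cells. Gm8730 and Gm10093, whose reads may be shared with near-identical copies, Fosb and Hspa1a completed the 6 highest.

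The genes lowest in KO were of several kinds. Flg, of terminal epidermal differentiation, Krtap17-1, a hair keratin-associated protein gene, Pcsk2, a prohormone convertase gene, Ccer2 and Ly6g6c had log2 fold changes of -5.16 to -3.35. All 7 suprabasal IFE markers fell, and their sum was 1618 and 2720 CPM in WT, 472 and 529 in KO and 2978 in the first WT library. It was 1734 and 2233 against 276 and 471 CPM in Langerhans-gated cells, and its part in the result was not tested.

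Signalling genes changed in both directions. Axin2, a Wnt target, was at 106 and 91.1 CPM in WT, 44.2 and 36.6 in KO and 29.5 in the first WT library, lower by 1.15 on the log2 scale (SE 0.15, adjusted p = 0.00124, edgeR). In the Wnt effector list 4 rose and 5 fell of 21, with Notum, Wif1 and Tcf7 higher by 0.79, 1.11 and 0.68, while Lef1 and Sp5 were at 0.29 and -0.52 (adjusted p = 0.107 and 0.161, edgeR). Notum was at 92.6 CPM in the first WT library, against 19.1 and 33.1 in WT and 35.8 and 47.5 in KO. Wif1 was at 93.9 CPM there, against 8.87 and 12.7 in WT and 16.9 and 26.0 in KO, and the log2 fold changes turned to -0.040 and -0.64 when that library was added to WT (edgeR). Ptch1, Gli1 and Gli3 fell by 0.45, 0.59 and 0.81 on the log2 scale, 3 of 11 hedgehog genes, and none rose. Over all genes 11.3% were lower and 12.8% higher. Ptch1 was at 355 and 330 CPM in WT, 239 and 216 in KO and 174 in the first WT library. Hes1, a Notch target, was at 369 and 183 CPM in WT, 80.4 and 78.7 in KO and 72.7 in the first WT library.

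Of 24 adhesion and matrix genes, 9 fell, 1 rose and 14 were not called, where 11.3% of all genes were lower and 12.8% higher. Lamb3, of laminin-332 in the basement membrane, was at 119 and 123 CPM in WT, 56.5 and 53.4 in KO and 97.7 in the first WT library, lower by 1.0 on the log2 scale (SE 0.12, adjusted p = 0.000952, edgeR). Lama3, Lama5, Itga6, Itgb4 and Col27a1 fell as well, by 0.42 to 0.83. Col27a1 was at 303 and 322 CPM in WT, 188 and 131 in KO and 161 in the first WT library, which here lay between the KO values. IFE basal markers (3 of 5) and outer root sheath markers (4 of 6) were also lower in KO. Their sums were 4700 to 5498 against 2776 to 3333 CPM and 1967 to 2447 against 836 to 1145 CPM. Upper follicle markers (2 of 3) fell too, from 642 to 728 CPM in WT to 273 to 298 CPM in KO. Of 6 sebaceous markers 5 fell and 1, Fabp5, rose. Of 8 Langerhans or macrophage markers 2, Cd74 and H2-Ab1, rose and none fell. The part of these lists in the result was not tested. In the S phase list 24 of 36 rose and none fell, with Mcm2, a DNA replication helicase gene, at 39.0 and 38.9 CPM in WT, 63.0 and 76.4 in KO and 121 in the first WT library. The G2M list went both ways, with 9 of 52 rising and 7 falling, against 12.8% and 11.3% of all genes. Mki67 and Top2a were at 0.26 and -0.04 (adjusted p = 0.127 and 0.896, edgeR). Of the 15 genes induced by tissue dissociation, 11 rose and none fell.

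Pdgfa and Ovol2 did not pass the test, at -0.12 (SE 0.12) and -0.11 (SE 0.22), nor did Edar at 0.28 (SE 0.16, adjusted p = 0.515, 0.743 and 0.214, edgeR).

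**Figure D5:**
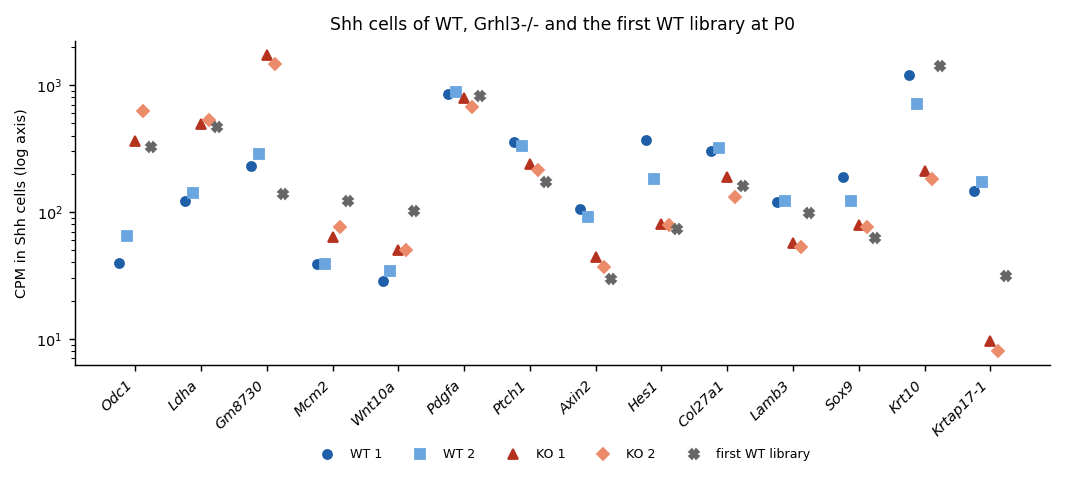
CPM in Shh cells (log axis) of 14 genes in 2 WT, 2 KO and the first WT library at P0. The first WT library lies beside KO for Odc1, Ldha, Axin2, Hes1 and Sox9, and nearer to WT for Gm8730, Lamb3 and Krt10.

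The KO effect itself was compared between Shh cells and Lhx2 cells without Shh of the same 4 libraries. Of 13457 genes, 129 had a more positive effect in Shh cells (0.959%) and 51 a more negative one (0.379%, edgeR), 1.34% in all. Lgr5 was at 35.6 and 35.8 CPM in WT and 19.2 and 16.9 CPM in KO Shh cells, but at 62.6 and 62.0 against 64.9 and 52.6 CPM in the comparison cells. The difference of the effects was -0.87 (SE 0.10, adjusted p = 0.000918, edgeR). Of 12 hedgehog genes 3 passed the threshold, and Ptch1 and Gas1 had differences of -0.48 and -0.37 (adjusted p = 0.000918 and 0.0382, edgeR). Ptch1 was at 254 and 244 CPM in WT and 251 and 220 CPM in KO in the comparison cells. Without KO1 or without KO2 only 12 genes in all were called, without WT1 298 and 174 and without WT2 214 and 170, and with no library block 0 (310 at an unadjusted p under 0.05, edgeR; 85 by DESeq2 with the block).

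Shh cells at P0 and E16.5 differed in 1910 higher (17.4%) and 1345 lower genes (12.2%) of 10983, 29.6% in all, by edgeR over 4 libraries each. Without E16.5 WT1 or WT2 the lower genes numbered 716 and 772. Age moves with tissue preparation, epidermis against whole skin, and in part with sex, since Xist was at 92.5 to 1663 CPM in Shh cells of E16.5 and at most 0.27 CPM at P0. Y-linked Ddx3y was at 46.6 to 56.1 CPM in the 4 P0 libraries and at 36.5 CPM in E16.5 KO1, with none in the other E16.5 libraries, although the methods describe both sexes for each genotype and age. Age and preparation cannot be told apart, and the part of sex was not tested. By the naming rule Xist led the lower genes, at a log2 fold change of -13.1. Hemoglobin transcripts came next, with Hbb-bs at 1027 to 20694 CPM at E16.5 and 0.48 to 5.6 CPM at P0. The part of hemoglobin in the other differences was not tested.

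Signalling lists changed in both directions with age. At P0 the Wnt effector list held 8 higher and 6 lower of 20 genes and the ectodysplasin list 2 and 3 of 8. The follicle transcription factors held 12 and 2 of 26, and 17.4% of all genes were higher and 12.2% lower. Dkk4, a secreted Wnt inhibitor, was at 77.6, 132, 261 and 208 CPM at E16.5 in WT1, WT2, KO1 and KO2 and at 0.81, 4.13, 6.49 and 5.42 CPM at P0. Fgf20, Edar, Lef1 and Trps1 fell by 3.14, 1.13, 0.83 and 1.81 on the log2 scale. Of 5 tested hair shaft genes 3 were higher and 1, Selenbp1, lower by 1.49 on the log2 scale. Krt35 was at 6.73 to 24.2 CPM at E16.5 and 56.7 to 106 CPM at P0 (log2 fold change 2.69, SE 0.34, adjusted p = 4.94e-05, edgeR). All 6 outer root sheath markers were also higher at P0, with Sox9 up by 2.56 and Lgr5 by 2.30. In the G2M list 24 of 52 rose and none fell, and in the S phase list 1 rose and 10 fell of 36. Bmp2 was at 164 to 222 CPM at E16.5 and 141 to 200 CPM in the 4 P0 libraries, with an adjusted p of 0.54 (edgeR).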

How the data were processed

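The authors deposited raw UMI counts per gene and barcode for called cells, made with Cell Ranger on mm10. The submitters' notes name Cell Ranger 1.3.1, and the 14-base barcodes of the first WT library differ from the 16 bases of the others. The limits given above were applied to these counts, with 600 to 4800 genes for E16.5. UMIs were summed per library and cell set, the library being the replicate, over 27998 gene identifiers. At P0 a library held 49245953 to 107038146 UMIs.

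The sums were tested with edgeR 4.0.16 (quasi-likelihood, TMM, filterByExpr, Benjamini-Hochberg adjustment) in R 4.3.3, with the 7 rule genes left out. The library was a block wherever both cell sets came from the same animal. Comparisons between genotypes and ages used no block. DESeq2 1.42.0, DESeq2-type size factors, no filter, leaving out libraries and other cell limits were the alternatives, and the code was tested on simulated data. Named genes were the 6 largest changes in each direction whose mean log2 CPM reached 5 and whose groups did not overlap, or, within libraries, moved the same way in each, plus listed genes. The cells and lists were chosen with earlier results of these data known. Gene places are from GENCODE M21. Some genes that met the naming rule are not reported here.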

Additional observations from a re-analysis of the deposited data

Results flagged for a closer look

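Differences of the KO effect between Shh cells and Lhx2 cells without Shh, each with an adjusted p under 0.05 by edgeR, drew attention. They are on the log2 scale, as the effect in Shh cells minus that in the comparison cells. The most positive were C1qc at 1.37, C1qb at 1.11, Cyba at 1.07, Odc1 at 1.05, Glul at 1.02 and Hebp1 at 0.82. C1qc was at 2.31 without WT2 and 0.99 without KO1, where it was not called, and none of the 23 genes named in this comparison was called under every alternative. C1qc, C1qb and Cyba are genes of macrophages and Langerhans cells, and C1qb was at 10.5 to 25.8 CPM in Shh cells and 2598 to 3487 CPM in Langerhans-gated cells. The most negative were Chst2 at -1.14, Lgr5 at -0.87, Lfng at -0.61, Nrep at -0.59, Sgk1 at -0.57 and Dcn at -0.54.

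Signalling genes of the lists with such a difference were Ptch1 at -0.48, Gas1 at -0.37, Axin2 at 0.46, Wnt10a at 0.53, Notch1 at 0.48 and Notch3 at 0.86. Ccnd1 and Ccnd2, cyclins of G1, were at -0.46 and -0.29, and the markers Col27a1 and Ovol2 at -0.40 and 0.42. Axin2 fell in KO in both cell sets, by 1.15 in Shh cells and 1.59 in the comparison cells on the log2 scale.

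A few genes of the lists moved in opposite directions at the 2 ages, each the same way in every library of an age, when Shh cells were set against Lhx2 cells without Shh, and the difference between the ages was not tested. At E16.5 the log2 fold changes were 2.00 for Cd74, 1.35 for H2-Ab1, 0.38 for Fabp5, 0.34 for Id3, -0.37 for Jun and -0.97 for Runx1. At P0 they were -1.60, -0.99, -0.89, -0.57, 0.26 and 0.36. The P0 calls of Cd74 and H2-Ab1 ended against comparison cells with at least 3 Lhx2 UMIs (edgeR), and all 8 tested Langerhans or macrophage markers were lower in Shh cells at P0.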

How the results depend on the processing

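At P0 the comparison of Shh cells with Lhx2 cells gave 199 higher and 207 lower genes with no replicate block, and 1631 to 2599 higher and 1940 to 2420 lower genes with 1 library left out. At E16.5 DESeq2 gave 165 higher and 153 lower genes, and leaving out a library 264 to 304 and 269 to 294. Against comparison cells with at least 3 Lhx2 UMIs, an alternative added after the data were seen, Flg at 0.38 and Krt16 at 0.14 changed sign, as did Mki67 at -0.019 and, at E16.5, Krtdap at 0.011. The cause was not tested.

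For KO against WT, leaving out a library gave 414 to 1706 higher and 413 to 1516 lower genes. With the first WT library added there were 0 higher and 0 lower genes by edgeR and 53 and 136 by DESeq2, the latter added after the data were seen. Bmp4, Notum, Pcna and Wif1 then changed sign, at -0.056, -0.040, -0.028 and -0.64 by edgeR and -0.071, -0.071, -0.052 and -0.70 by DESeq2. With a replicate block there were 1895 higher and 1666 lower genes. Deviations of same-numbered WT and KO libraries had a correlation of -0.04 at P0 and 0.04 at E16.5. Whether such libraries share more than a number cannot be told from these values. The block moved neither count of this comparison by over 1.5 times. For the age comparison the block gave 1944 and 1227 genes, and leaving out a library 1386 to 1900 and 716 to 1307.

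For the difference of the KO effects there were 59 and 26 genes by DESeq2, 287 and 167 with no filter, 0 and 0 with no replicate block, and 5 to 298 and 3 to 174 with a library left out. The share of Shh cells, KO minus WT, was -0.62 percentage points after thinning and -1.74 to 3.21 with a library left out. The E16.5 values rest on 33 to 66 Shh cells per library.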

Other observations

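The KO effect on ribosomal protein genes was set beside that in Lhx2 cells without Shh. Tested were 104 symbols that begin with Rps or Rpl and a digit, a pattern that also takes in a few kinases and pseudogenes. By edgeR at an adjusted p under 0.05, 32 were more positive in Shh cells, none more negative and 72 not called. Of all genes, 0.959% were more positive and 0.379% more negative. The same comparison over all genes gave 0 calls with no library block and 12 without KO1 or without KO2. The median difference was 0.11 on the log2 scale, against -0.01 over all genes.

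The letters AACCGGTT, a Grainyhead-like motif, were found on either strand in the 300-base promoters of 28 of 9306 genes tested with a RefSeq entry (0.301%). They were in 9 of 1211 genes higher in KO (0.743%) and 5 of 1037 lower (0.482%). Grhl1, a relative of Grhl3, was at 46.8 and 38.3 CPM in WT Shh cells, 23.5 and 24.4 CPM in KO and 18.6 CPM in the first WT library.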
